A study of Mus musculus with 16 samples.

Results

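Long intergenic noncoding RNAs, or lincRNAs, were examined in cells washed from mouse airways, and 194 of the 4915 autosomal lincRNA genes in the annotation of the deposited tables were taken as expressed. A lincRNA gene off the X and Y chromosomes was kept when its mean level reached 1 FPKM, the counts per kilobase of gene scaled for sequencing depth, in the 8 saline libraries or in the 8 bleomycin libraries. Of the 194, 105 reached 1 FPKM in both treatments, 63 under saline only and 26 under bleomycin only. The members were thus chosen by their mean level in each treatment. No count at all was assigned to 2848 of the 4915 genes in any of the 16 libraries.

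The 16 libraries came from bronchoalveolar lavage cells of male and female mice aged 8 to 10 weeks, and the study asked how the response of these cells to bleomycin differs between the sexes. The mice are C57BL/6 in the description of the design and C56BL/6J in the labels of the samples, and no transgene or knockout is named for any group. Saline (4 males, 4 females) or bleomycin at 4 U per kg of body weight (4 males, 4 females) had been given into the oropharynx, and cells were collected at 14 days. Bleomycin breaks DNA, injures the lung and is used to model pulmonary fibrosis, and lavage cells of an untreated mouse are mostly resident alveolar macrophages. The labels do not say whether a library is 1 mouse or a pool, so the p-values measure the spread between these libraries.

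LincRNA genes are transcribed, usually spliced and polyadenylated like messenger RNA, but code for no long protein, and they lie between the protein-coding genes. Some act in the nucleus as scaffolds of nuclear bodies or as regulators of nearby genes, some carry small RNAs in their introns, and for most no function is known. Their transcription is often restricted to few cell types, so that in a mixed cell population a level reflects both the cells present and the transcription in each.

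Total counts ran from 16385784 to 21393539 in the saline and from 18871879 to 24567609 in the bleomycin libraries. All 10 markers of resident alveolar macrophages were detected in each group. Their summed levels were 16140 to 17990 CPM (counts scaled for library size and for composition) in saline males and 22130 to 25390 CPM in saline females. Under bleomycin they were 10680 to 18640 CPM in males and 10450 to 23360 CPM in females. The 10 markers of monocyte-derived macrophages summed to 396 to 563 CPM under saline and to 12570 to 27360 under bleomycin, with Ly6c2 at 0 in saline females. For 10 T cell markers the sums were 241 to 276 and 336 to 679 CPM, and for 7 B cell markers 0.735 to 1.39 and 59.2 to 388 CPM, with Cd79b, Pax5 and Pou2af1 at 0 in saline males. The sums of 6 dendritic cell markers were 12.9 to 29.0 and 161 to 348 CPM under saline and bleomycin, and those of 6 NK cell markers 0.362 to 1.09 and 7.36 to 19.3 CPM, with Ncr1 at 0 in both saline groups. Those of 5 red blood cell genes ran from 7.23 to 440.5 and from 67.2 to 6018 CPM. For 7 neutrophil markers they ran from 49.6 to 67.8 and from 114 to 201 CPM. Of these markers Ly6g was at 0 in both saline groups and in bleomycin females, and Retnlg at 0 in saline males. The part of these cells in the changes given below was not tested, and in such bulk samples fewer cells of a type and less RNA per cell cannot be told apart. The libraries C33, C49 and C50, whose codes lie outside the run of the other 13, were also left out together, and results that changed are given with both values.

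The 194 lincRNAs carried little of the RNA and few of them were abundant. Together they took 0.608% to 0.675% of all gene counts in saline males, 0.465% to 0.617% in saline females, and less in 7 of the 8 bleomycin libraries. Bleomycin males stood at 0.237% to 0.356%, with C33 the highest, and bleomycin females at 0.210%, 0.240%, 0.325% and, in C49, 0.559%. C49 was the only bleomycin library within the saline range. Malat1, AU020206 and Neat1 alone held 44.9% (C69) to 72.7% (C49) of these counts. In its higher treatment the mean level of a lincRNA was 2.13 FPKM at the median and 267 FPKM at most, with 24 of the 194 at 10 FPKM or more and 94 below 2 FPKM. Just inside the threshold were Gm19710 at 1.01, Gm32184 at 1.02 and 2310001H17Rik at 1.02 FPKM, and just outside it Gm33103 at 0.995, Gm42595 at 0.987 and BC043934 at 0.982 FPKM.

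**Figure D1:**
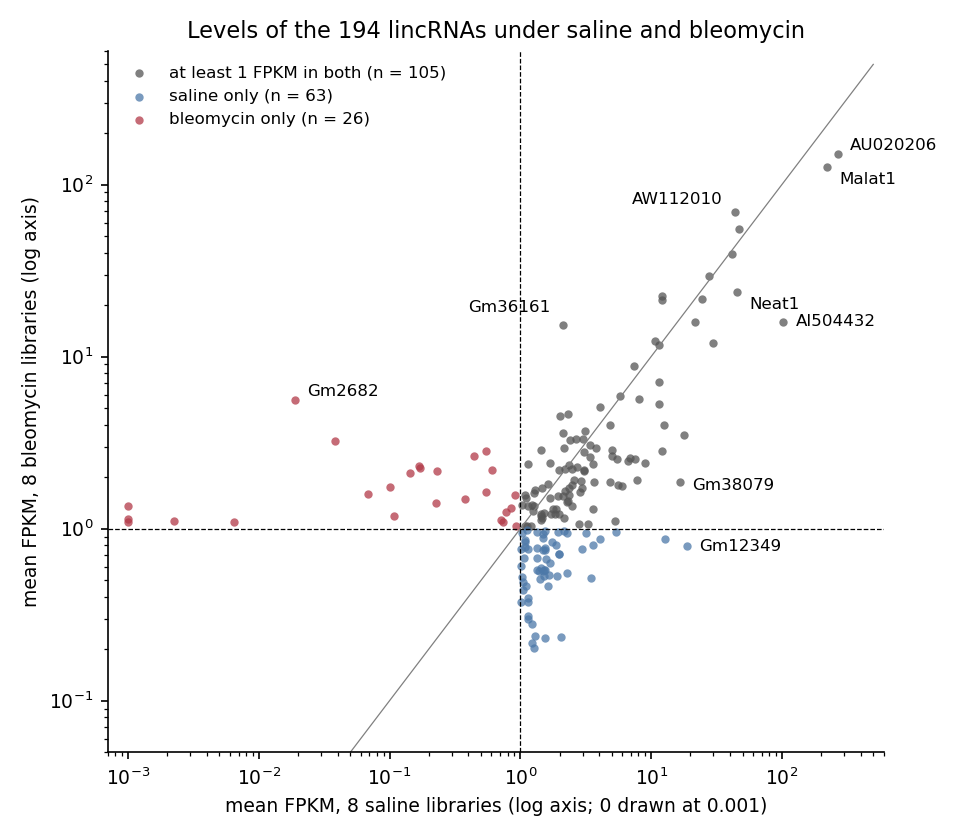
Mean FPKM of each of the 194 lincRNAs in the 8 saline libraries (horizontal, log axis, 0 drawn at the left edge) and the 8 bleomycin libraries (vertical, log axis), coloured by the treatments in which it reached 1 FPKM (dashed lines). AI504432 and Gm12349 lie far below the diagonal of equal levels, and Gm36161 and Gm2682 far above it.

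**Figure D2:**
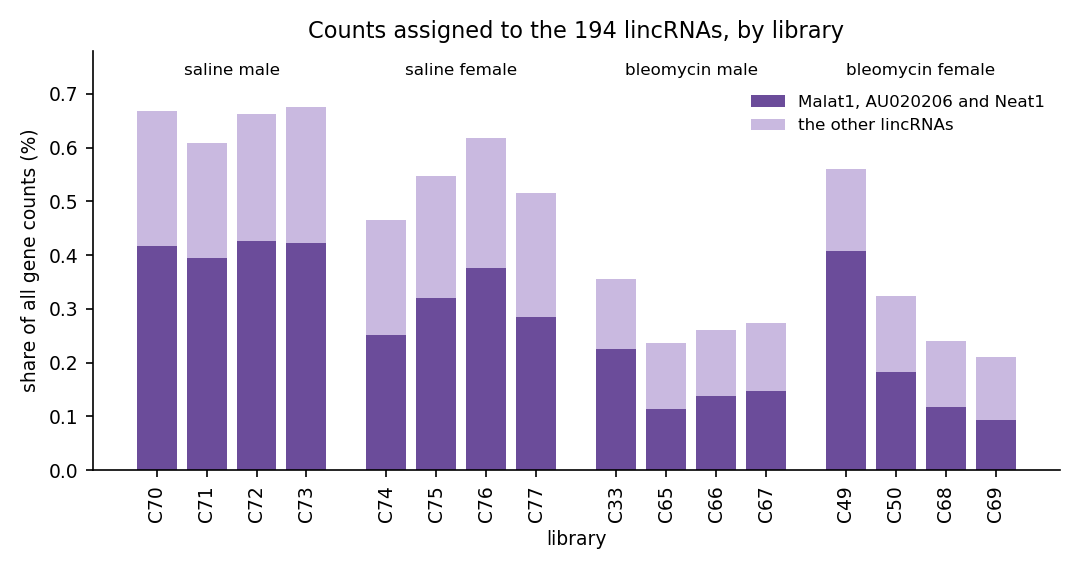
Share of all gene counts in percent (vertical) assigned to the 194 lincRNAs in each of the 16 libraries, split into Malat1, AU020206 and Neat1 (dark) and the other lincRNAs (light). C49 stands at 0.559%, and the other bleomycin libraries at 0.356% or less.

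Most of the members have no name beyond a catalogue entry: 120 carry a Gm symbol, 43 a Rik symbol and 6 a clone name. Their median length was 1453 bases. In the GENCODE M21 annotation of GRCm38, which holds 193 of them, 172 have at least 2 exons in some transcript and 21 have a single exon. M21 gives the type lincRNA for 187 of these 193, whereas the deposited annotation gives it for all 194. Small RNA genes lie inside 10 members, among them Mir142 in Mir142hg, Snord87 in Snhg6, and Snora44, Snora61 and Snord99 in Snhg12. A protein-coding gene overlaps 34 of the 194 and starts or ends within 5000 bases of 92, counting the overlapping ones. Whether the libraries keep the strand is not given in the sources used here, so reads of overlapping genes on opposite strands cannot be told apart.

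A RefSeq promoter entry on GRCm38.p6, from 250 bases before to 50 bases after an annotated start, was found for 90 of the 194. The 4 below belong to lincRNAs with some of the largest changes after bleomycin, 2 that rose and 2 that fell. Capitals mark matches to the motifs searched and all other bases are in lower case.
Gm36161, chr13:120010092-120010391, plus strand: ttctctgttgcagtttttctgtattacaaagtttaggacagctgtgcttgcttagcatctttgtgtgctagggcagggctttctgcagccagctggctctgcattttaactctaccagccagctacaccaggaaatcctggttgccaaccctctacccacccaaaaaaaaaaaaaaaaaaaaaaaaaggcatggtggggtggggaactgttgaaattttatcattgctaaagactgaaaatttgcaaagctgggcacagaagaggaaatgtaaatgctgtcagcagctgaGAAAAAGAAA
Gm17586, chr11:120633500-120633799, plus strand: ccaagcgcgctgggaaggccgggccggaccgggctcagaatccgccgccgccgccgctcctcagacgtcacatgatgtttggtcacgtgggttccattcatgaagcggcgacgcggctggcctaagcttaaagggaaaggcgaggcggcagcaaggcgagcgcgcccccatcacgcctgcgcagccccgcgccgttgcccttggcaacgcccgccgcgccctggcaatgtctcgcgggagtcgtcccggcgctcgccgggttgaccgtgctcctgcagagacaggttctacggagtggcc
4933424M12Rik, chr4:107783436-107783735, plus strand: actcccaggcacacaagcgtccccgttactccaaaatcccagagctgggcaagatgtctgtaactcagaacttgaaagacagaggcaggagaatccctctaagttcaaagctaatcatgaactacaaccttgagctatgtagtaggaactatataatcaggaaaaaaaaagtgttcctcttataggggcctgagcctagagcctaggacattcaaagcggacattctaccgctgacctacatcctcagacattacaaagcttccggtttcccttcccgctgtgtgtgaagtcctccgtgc
A930007I19Rik, chr19:29521938-29522237, minus strand: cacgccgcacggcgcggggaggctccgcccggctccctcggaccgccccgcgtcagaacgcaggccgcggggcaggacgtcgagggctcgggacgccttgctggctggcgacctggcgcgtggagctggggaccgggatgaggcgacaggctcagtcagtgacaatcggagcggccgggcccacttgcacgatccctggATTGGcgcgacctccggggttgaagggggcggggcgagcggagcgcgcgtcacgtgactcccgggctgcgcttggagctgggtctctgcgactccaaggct
The RefSeq start lies 48, 18, 34 and 1172 bases, in this order, from the gene start in the deposited table. Gm17586 and A930007I19Rik have GC-rich promoters, with 69.7% and 73.7% G or C and 39 and 40 CG pairs, while those of Gm36161 and 4933424M12Rik have 42.3% and 47.3%, with 0 and 7 CG pairs. The median over the 90 promoters was 50.7%, and over 31365 autosomal promoters of the same length 53%.

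Motifs were searched on both strands of the 300 bases. The core of the interferon-stimulated response element occurs in the promoter of Gm36161 and in 4.44% of the members' promoters, against 3.45% of all promoters. A CCAAT box, CCAAT, occurs in that of A930007I19Rik, in 33.3% of the members' promoters and in 37.3% of all. TATAAA, the TATA box, was found in 13.3% of the members' promoters (all, 13.6%) and the AP-1 site TGANTCA in 7.78% (all, 7.85%). The sequence GAGGAAGT, bound by the macrophage factor PU.1, was found in 8 of the 90 (8.89%; all, 3.25%). All 8 belong to lincRNAs at 1 FPKM or more in both treatments, as do 53 of the 90 promoters. A match is a description of the letters only.

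After bleomycin the best known nuclear lincRNAs were lower. Malat1, an unspliced RNA of nuclear speckles, was found at 263, 286, 258 and 253 FPKM in saline males and at 152, 182, 225 and 157 FPKM in saline females. Under bleomycin it stood at 170 (C33), 64.8, 88.4 and 112 FPKM in males and at 342 (C49), 118, 76.3 and 41.7 FPKM in females. All bleomycin libraries but C33 and C49 lay below every saline library, and C49 was above all of them. The log2 fold change of Malat1, averaged over the sexes, was -0.79 ± 0.30 (SE), with an edgeR adjusted p of 0.0299. The call ends (edgeR adjusted p from 0.0501 to 0.0580) when saline female C76, bleomycin male C65 or C66, or bleomycin female C50 or C68 is left out. Without C49 the log2 fold change was -1.22, and without C33, C49 and C50 it was -1.62.

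Neat1, the RNA scaffold of paraspeckles, had a lowest, median and highest level of 26.2, 45.0 and 60.0 FPKM over the saline libraries and of 14.6, 17.7 and 48.6 FPKM over the bleomycin libraries. It fell by 0.93 ± 0.22 on the log2 scale (edgeR adjusted p = 0.00141), and by 1.53 without C33, C49 and C50. As for Malat1, C49 (48.6 FPKM) and C33 (30.6 FPKM) were the highest of their groups. Pvt1, the lincRNA downstream of Myc, had 1.85, 2.13 and 2.53 FPKM under saline and 1.02, 1.14 and 1.36 FPKM under bleomycin, as lowest, median and highest, so that the treatments did not overlap. It fell by 0.88 ± 0.08 on the log2 scale (edgeR adjusted p = 4.23e-08). These 3 were the members on a list of 12 nuclear body and chromatin RNAs, of which 7 passed the filter on low counts, 1 higher and 6 lower after bleomycin at an edgeR adjusted p below 0.05, where 34.7% of all 15257 genes tested were higher and 28.8% lower. The other 4 are no members: Firre fell by 1.61 ± 0.24, Kcnq1ot1 by 1.30 ± 0.28 and Tug1 by 0.20 ± 0.07 on the log2 scale, and Airn rose by 3.01 ± 0.44.

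AU020206 had the highest mean level of all members, and no role is given for it here. It stood at 287, 280, 288 and 283 FPKM in saline males and 245, 261, 259 and 231 FPKM in saline females. Under bleomycin it stood at 170, 146, 157 and 139 FPKM in males and 164, 140, 140 and 146 FPKM in females. The groups of the 2 treatments were far apart and C49 lay with the other bleomycin libraries. The log2 fold change was -0.81 ± 0.06, with an edgeR adjusted p of 5.54e-10.

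**Figure D3:**
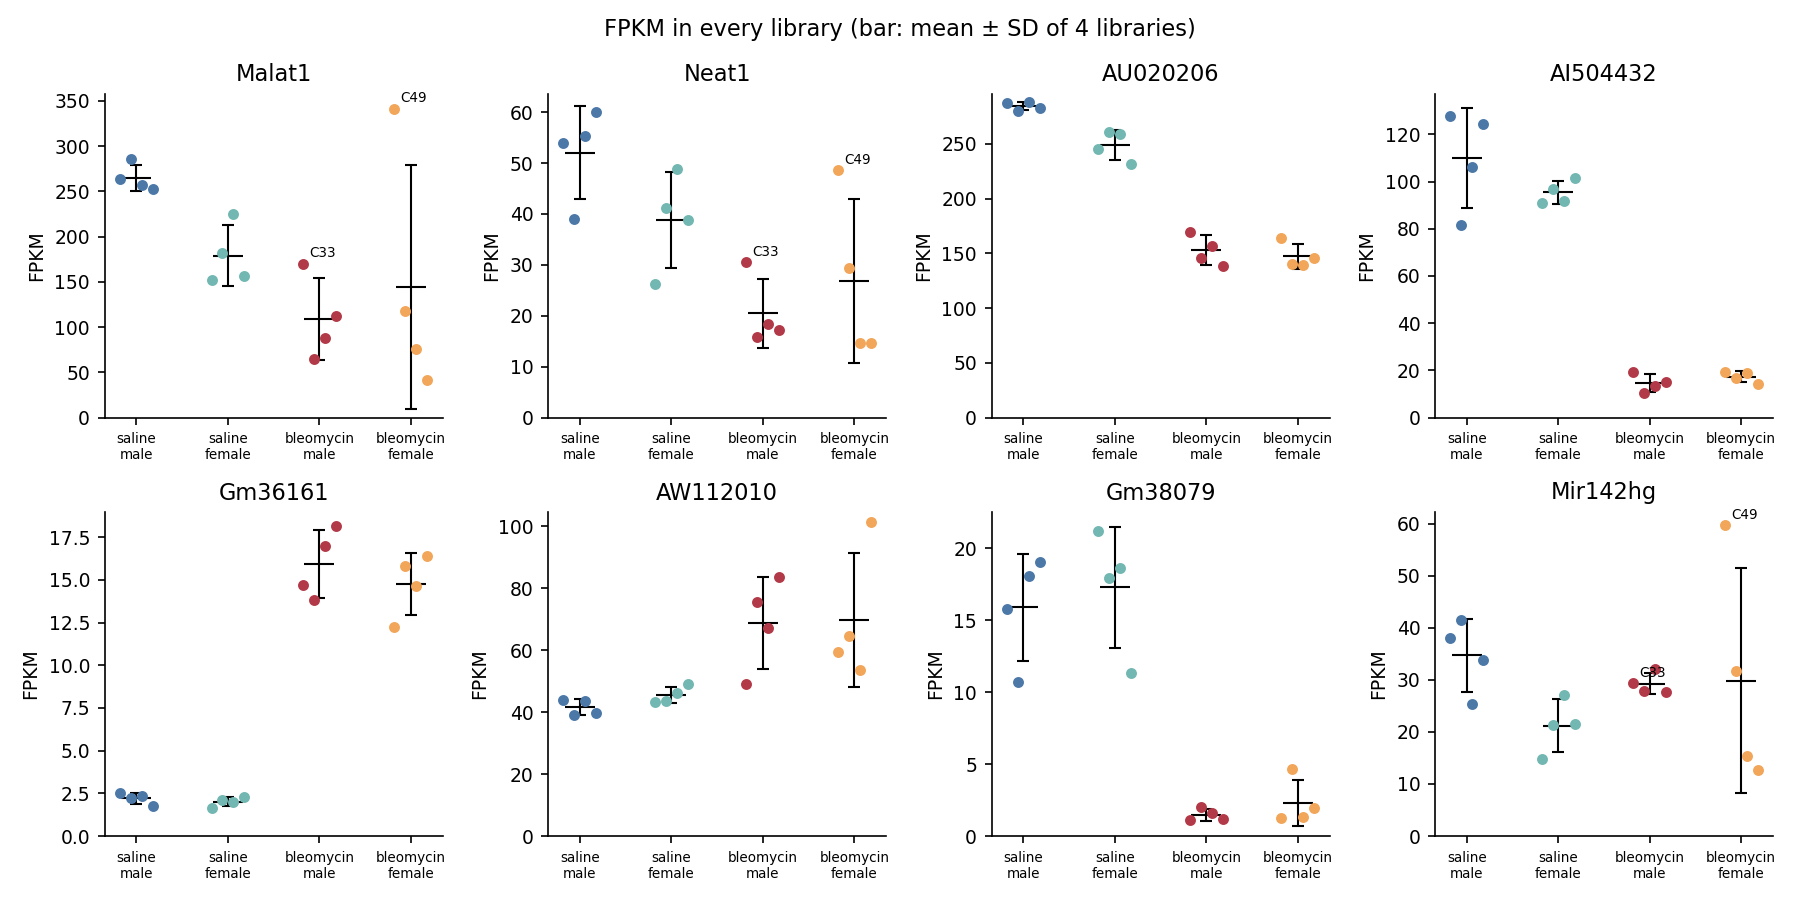
FPKM (vertical, from 0) of 8 lincRNAs in each library of the 4 groups (horizontal), with the mean ± SD of 4 libraries as bars. C49 is the highest bleomycin library for Malat1 (342 FPKM), Neat1 (48.6) and Mir142hg (59.6), whereas AU020206, AI504432, Gm36161, AW112010 and Gm38079 separate saline from bleomycin in all 16 libraries.

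Of the 10 lincRNAs with a small RNA gene inside, 8 reached 1 FPKM in both treatments, and 4 of these fell and 0 rose (28.8% of all genes fell and 34.7% rose). Snhg20 was 1 of the 4 that fell and the only one of the named snoRNA hosts to do so, with 3.41, 5.62 and 7.34 FPKM under saline and 1.81, 2.05 and 4.07 FPKM under bleomycin as lowest, median and highest. It fell by 1.11 ± 0.17 on the log2 scale (edgeR adjusted p = 1.57e-05). Snhg6, Snhg12 and Epb41l4aos had log2 fold changes of 0.25 ± 0.11, -0.15 ± 0.17 and 0.01 ± 0.15, none of them called. Their medians were 7.53 and 7.85, 2.43 and 2.12, and 12.6 and 10.2 FPKM under saline and bleomycin, in this order. Snhg6 crosses the threshold without saline male C71 (0.31; edgeR adjusted p = 0.0236) or without bleomycin male C67 (0.32; edgeR adjusted p = 0.0117). Of the list of 22 snoRNA host and related genes, 14 passed the filter, of which 1 rose and 3 fell, against 34.7% and 28.8% of all genes, and the median log2 fold change of the 14 was -0.07.

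Mir142hg, which carries the microRNA gene Mir142 of blood cells, differed widely between libraries. It stood at 37.9, 41.5, 25.4 and 33.9 FPKM in saline males and at 14.8, 21.4, 27.2 and 21.4 FPKM in saline females. Under bleomycin it stood at 29.4, 27.8, 32.1 and 27.7 FPKM in males and at 59.6 (C49), 31.7 (C50), 15.4 and 12.6 FPKM in females. Its change was not called (log2 0.14 ± 0.24, edgeR adjusted p = 0.626), but without C33, C49 and C50 it was -0.44 with an edgeR adjusted p of 0.0142. The direction of Mir142hg also turns under library totals alone (log2 -0.05) and without C49 alone (-0.15), in both cases without a call. Among 13 listed microRNA host genes 6 passed the filter, of which Mir155hg, no member, rose by 1.11 ± 0.38 and Dleu2 and Lncpint fell (all genes, 34.7% and 28.8%).

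Of the lincRNAs listed for immune roles and DNA damage, AW112010 rose. This RNA is induced by interferon and by bacterial signals in macrophages. Its lowest, median and highest levels were 39.0, 43.7 and 48.9 FPKM under saline and 49, 66 and 102 FPKM under bleomycin, so that the treatments came close but did not overlap. The rise was 0.68 ± 0.12 on the log2 scale (edgeR adjusted p = 8.03e-05). The mouse Norad gene, listed as 2900097C17Rik, an RNA that binds Pumilio proteins and is linked to genome stability, had almost the same level in both treatments. It had 37.1, 42.9 and 44.1 FPKM under saline and 35.5, 40.2 and 42.3 FPKM under bleomycin, and a log2 fold change of -0.06 ± 0.05 (edgeR adjusted p = 0.356). Under library totals alone this change is -0.27 and called. On the list of 19 immune lincRNAs 10 passed the filter, 3 higher and 3 lower. The DNA damage list has 11 symbols, with Norad and 2900097C17Rik both among them for the same gene. Of these 7 passed, 0 higher and 4 lower, beside 34.7% of all genes higher and 28.8% lower. The lists share genes, so these are no separate falls. The 4 are Neat1, Pvt1, Tug1 and Lncpint, and the 3 lower on the immune list are Malat1, Neat1 and Pvt1, all given above.

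A change with bleomycin was tested for the 105 lincRNAs at 1 FPKM or more in both treatments, of which 104 passed the filter on low counts. Averaged over the sexes, 16 rose and 43 fell at an edgeR adjusted p below 0.05, where 34.7% of all 15257 genes tested rose and 28.8% fell. The members' levels had been used to choose them, so nothing is read from these shares. The median log2 fold change was -0.34 over the 104 and 0.01 over all genes. With library totals in place of the composition scaling, 10 rose and 53 fell, the median of all genes moved to -0.20, and 24.4% of all genes rose and 45.9% fell. A change of at least 2-fold was called in 24 of the 104 (23.4% of all genes), 4 higher and 20 lower. The 8 bleomycin libraries lay wholly above the 8 saline libraries in 5 of the 16 that rose (31.2%; 54.3% of all genes that rose) and wholly below in 21 of the 43 that fell (48.8%; 37.8% of all genes that fell). Without C33, C49 and C50, 14 rose and 58 fell, 55 of them among the 59 called with all libraries, and of all genes 34.5% rose and 35.7% fell in that fit.

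C49 was the bleomycin library nearest to saline for many of the genes that fell, lincRNAs or not. For 19 of the 43 lincRNAs that fell (44.2%) it had the highest of the 8 bleomycin values, and C68 had it for 10 (23.3%). Among the 16 lincRNAs that rose, C49 had the lowest bleomycin value for 3, as had C33, C68 and C69. Over all genes that fell, C49 was the highest for 37.4% and C68 for 14.4%.

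The largest fall was that of Gm38079, a gene of 154 bases on chromosome 1 that begins 232 bases beyond the end of Tlr5, the receptor for flagellin, on the same strand. It had 10.7, 18 and 21.2 FPKM under saline and 1.12, 1.46 and 4.63 FPKM under bleomycin, as lowest, median and highest, and C50 was the highest bleomycin library. The counts behind it were 403 and 49 over the 8 libraries of each treatment. It fell by 3.13 ± 0.28 on the log2 scale (edgeR adjusted p = 1.47e-08), and Tlr5 itself by 2.98 ± 0.16. The treatments did not overlap.

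AI504432 was the most abundant lincRNA among the large falls. It lies on chromosome 3, from 107039504 to 107054347 on the plus strand, and begins 1434 bases beyond Kcna3, which codes for a voltage-gated potassium channel. In saline males it stood at 128, 81.5, 106 and 125 FPKM, and in saline females at 91.0, 97.0, 91.8 and 102 FPKM. In bleomycin males it stood at 19.3, 10.6, 13.4 and 15.1 FPKM, and in bleomycin females at 19.4, 16.6, 18.9 and 14.3 FPKM. Every bleomycin value was thus less than any saline value, and C49 did not stand apart. The log2 fold change was -2.68 ± 0.12 (edgeR adjusted p = 9.29e-13), and that of Kcna3 was -2.999 ± 0.21, from a mean of 125 to 15.6 FPKM.

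Among the 10 largest falls 8 further lincRNAs are little studied. Gm41307 had medians of 17.5 and 3.43 FPKM under saline and bleomycin and fell by 2.33 ± 0.17 on the log2 scale (edgeR adjusted p = 1.31e-09). For 4933424M12Rik, whose promoter is printed above, the levels were 4.10 to 6.76 FPKM and 0.771 to 1.81 FPKM, and the fall was 2.24 ± 0.15. A930007I19Rik, also printed above, had 11.1 to 13.6 FPKM in the saline and 2.25 to 3.49 FPKM in the bleomycin libraries and fell by 2.10 ± 0.07, with the smallest edgeR adjusted p of all members tested (3.2e-14). It overlaps Ric1 on the opposite strand, and Ric1 had a log2 fold change of 0.14 ± 0.06, not called. None of these 3 lincRNAs overlapped between the treatments.

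Gm11496, Gm19951, Gm26532, Gm14321 and Gm28100 fell by 2.01, 1.89, 1.74, 1.71 and 1.70 on the log2 scale, with SE from 0.21 to 0.29. Only Gm14321 overlapped between the treatments, with 3.58 to 6.69 FPKM under saline and 0.666 to 3.96 FPKM under bleomycin, where C49 was the highest. Gm14321 lies 87049 bases beyond Cebpb, a transcription factor gene of myeloid cells, its nearest protein-coding gene, on the same strand. Cebpb fell by 0.46 ± 0.12, from a mean of 532 to 382 FPKM.

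Gm36161 showed the largest rise. It is a gene of chromosome 13, from 120010390 to 120018931 on the plus strand. In saline males it stood at 2.51, 2.23, 2.33 and 1.76 FPKM and in saline females at 1.65, 2.12, 2.01 and 2.28 FPKM. In bleomycin males it stood at 14.7, 13.8, 17 and 18.2 FPKM and in bleomycin females at 12.3, 15.8, 14.6 and 16.4 FPKM. The 2 ranges were far apart and narrow in all 4 groups. Gm36161 rose by 2.87 ± 0.10 on the log2 scale (edgeR adjusted p = 5.74e-14), by 2.86 in males and 2.89 in females. Over 612 bases (40.6% of its transcript) Gm36161 matches the protein-coding gene Gm21188 with 97.2% identity, so its level is uncertain to that extent. Gm21188 had means of 2.14 and 5.93 FPKM under saline and bleomycin.

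The remaining rises were smaller, and 3 others of them exceeded 2-fold. Gm17586, which starts 168 bases from Mafg in the opposite direction, had 1.17 to 2.89 FPKM under saline and 2.51 to 6.51 FPKM under bleomycin and rose by 1.18 ± 0.21 on the log2 scale (edgeR adjusted p = 8.89e-05), while Mafg did not pass the test (-0.05 ± 0.06). Gm38399, inside Nav1 on the same strand, rose by 1.14 ± 0.34 (edgeR adjusted p = 0.00704), and without C33, C49 and C50 its change was 0.40 and not called. Gm40932 rose by 1.05 ± 0.25. Gm5547, 1810058I24Rik, Gm44751 and Gm20735 rose by 0.98, 0.82, 0.78 and 0.54, and the last 3 had no bleomycin value within the saline range.

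1810058I24Rik was the most abundant of these 4, with medians of 12 and 20.3 FPKM under saline and bleomycin. Gm44751 begins 590 bases beyond Ctsc, the gene of cathepsin C, which rose by 0.45 ± 0.06. Gm26917, listed as a transcript of a ribosomal RNA locus, rose by 0.94 ± 0.13 (edgeR adjusted p = 6.43e-06), from a median of 11.1 to 23.2 FPKM. The ribosomal gene CT010467.1 had a log2 change of 0.29 ± 0.21, not called, and the part of ribosomal RNA left in the libraries was not tested.

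Changes of 45 of the 104 were not called, the largest of them 0.66 in size, and the median SE was 0.19. For 28 of the 194 a transcript matches that of a protein-coding gene elsewhere over at least 100 bases with at least 95% identity, which leaves the level of those matched over most of their length uncertain. Gm10076 matches the ribosomal protein gene Rpl41 over 383 bases with 99.5% identity, and its level ran from 13.9 to 137 FPKM under saline and from 7.15 to 163 FPKM under bleomycin (log2 fold change 0.21 ± 0.56). Gm28901 matches Hnrnpf over 86.5% of its transcript, Gm6712 matches Zfp97 over 95.2% and Gm47467 matches Zfp825 over its whole length.

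The 63 lincRNAs at 1 FPKM under saline only and the 26 under bleomycin only differ between the treatments through the way they were chosen, so their values are a description without a test. Gm12349 on chromosome 11 had 15.8 to 21.8 FPKM in the saline and 0.204 to 1.32 FPKM in the bleomycin libraries, the highest level of the 63. Gm34907 had 9.79 to 15.9 and 0.498 to 1.26 FPKM. It lies 723 bases upstream of Scel, whose mean fell from 3.16 to 0.863 FPKM. Gm33432, near the lipase gene Pnpla5, had 4.47 to 5.97 and 0.262 to 1.42 FPKM, with means for Pnpla5 of 16.6 and 2.47 FPKM.

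Lower saline levels were found for Gm32364, Gm28286 and AC122509.1, with medians of 4.31, 3.46 and 3.56 FPKM under saline and 0.818, 0.579 and 0.442 FPKM under bleomycin. In 23 of the 63 every bleomycin library was below every saline library (10.9% of all genes tested). The median ratio of the higher to the lower mean was 2.61, and 8 of the 63 were within 1.5-fold.

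The 26 had a median ratio of 10.2, and in 18 of them every bleomycin library was above every saline library (18.9% of all genes tested). Gm2682 on chromosome 15 had 0 to 0.0804 FPKM under saline (6 counts in 8 libraries) and 3.36, 8.18, 5.83 and 7.89 FPKM in bleomycin males and 10.0, 5.68, 2.32 and 1.64 FPKM in bleomycin females. Gm44174, of 141 bases, lies 143 bases upstream of Cd8a, the co-receptor gene of cytotoxic T cells, and had 1 count under saline and 77 under bleomycin. The ratio of its CPM values was 72.9, with an exact 95% interval of 12.7 to 2917 for counting error. Cd8a had means of 0.0325 and 8.89 FPKM. C49 had the highest Gm44174 level, 11.3 FPKM.

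No count was found under saline for 3 lincRNAs, named here after their values were seen. Against a floor of 3 counts over the 8 saline libraries, A630023P12Rik (357 counts) was at least 113-fold higher under bleomycin, Gm20506 (132 counts) at least 41.7-fold and Gm43698 (129 counts) at least 40.7-fold. For 2 more the ratio rests on 1 or 2 saline counts: Gm47015 at 478 (exact 95% interval 85.5 to 18930) and Gm14461 at 154 (42.4 to 1280). The reverse case was Gm11466, with 67 counts under saline and 2, both in C49, under bleomycin, a ratio of 35.4 (9.42 to 298).

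Markers of lymphocytes and other cells varied between the bleomycin libraries, and some of the lincRNAs varied with them. Over these 8 libraries, 5 of the 26 found under bleomycin only had a Spearman correlation of at least 0.7 with the summed T cell markers and 10 with the summed B cell markers (7.42% and 7.37% of all genes). The counts were 6 for NK cells, 7 for dendritic cells and 7 for red blood cells (6.61%, 6.57% and 5.91%). They were 0 for resident alveolar macrophages and 0 for fibroblast and endothelial cells (12.9% and 11.2% of all genes). For monocyte-derived macrophages, neutrophils and epithelial cells they were 1 each (13.2%, 4.1% and 10.2%). The lymphocyte lists move together, with a correlation of 0.79 between T and B cell sums and 0.98 between T and NK cell sums. Other lists move with them. Dendritic cell sums had 0.90 with T and 0.83 with B cell sums, and red blood cell sums 0.69 and 0.90. Gm2682 had 0.90 with T and 0.81 with B cell markers, 2610035D17Rik 0.93 and 0.71, and Gm47015 0.86 and 0.93. In the same order these lincRNAs had 0.93, 0.90 and 0.81 with NK cell markers and 0.86, 0.83 and 0.81 with dendritic cell markers. Among the 105 found in both treatments 2 reached 0.7 with T and 5 with B cell markers, and among the 63 of saline only 2 and 1. With fibroblast and endothelial markers 16 of the 105 and 14 of the 63 reached 0.7 (11.2% of all genes). With those of monocyte-derived macrophages 6 and 0 did (13.2%), and 16 and 14 were at -0.7 or below (1863 of 15257 genes). With resident alveolar macrophage markers 8 and 0 reached 0.7 (12.9%), and 16 and 10 were at -0.7 or below (1844 of 15257). With epithelial markers these counts were 5 and 0 (10.2%), and 16 and 13 (1455 of 15257). With library totals in place of the composition scaling, an alternative chosen after seeing the data, 8 and 10 of the 26 reached 0.7 with T and B cell markers (9.79% of all genes for each). These points share the library and its cell composition, and no test was made. The 26 reached the threshold only through these same 8 libraries, so nothing is read from their shares beside those of all genes.

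In males 11 of the 104 rose and 39 fell (all genes, 31.5% and 24.9%), and in females 13 rose and 31 fell (26.7% and 17.2%). Both sexes gave a call in the same direction for 36 of the 104 lincRNAs (38.6% of all genes) and in opposite directions for 0 (0.0197%). A call was made in males only for 14 (17.8%) and in females only for 8 (5.29%). A call in one sex only does not show a difference, and the interaction of bleomycin with sex, which tests it, was called for 0 of the 189 members that passed the filter (0.00655% of all genes). An unadjusted p below 0.05 was found for 17 of them (7.88% of all genes), and DESeq2 and limma voom also called 0 members. The fall of Malat1 was 1.27 ± 0.43 in males and 0.30 ± 0.42 in females, where C49 stands apart, with an edgeR adjusted p for the interaction of 0.653. Gm14321 fell by 2.38 ± 0.32 and 1.03 ± 0.30, and the edgeR adjusted p of the interaction was 0.564.

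**Figure D4:**
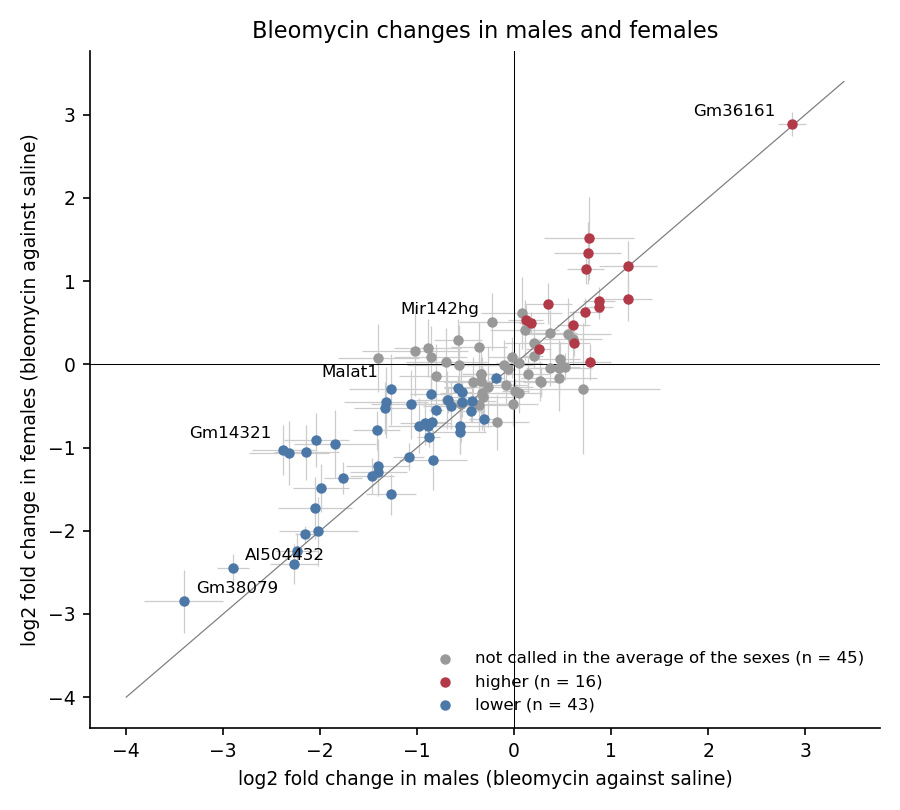
Log2 fold change after bleomycin in females (vertical) against males (horizontal), ± SE, for the 104 lincRNAs tested, with the line of equal change and colours for the call in the average of the sexes. Gm36161 and Gm38079 lie at the ends near the line, and Malat1 (-1.27 in males, -0.30 in females) and Gm14321 lie above it.

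Direct comparisons of males with females called 0 of the 189 members under saline (0.269% of all genes) and 0 under bleomycin (0.059%) in edgeR, DESeq2 and limma voom. Unadjusted p-values below 0.05 in edgeR were found for 14 under saline (9.56% of all genes) and 15 under bleomycin (3.97%). The choice of the members did not use sex. Without a test, 18 of the 189 (9.52%) had all 4 saline males above all 4 saline females, against 6.98% of all genes, and 2 (1.06%) had them below, against 6.05%. Under bleomycin the counts were 2 above (1.06%; all genes, 0.872%) and 1 below (0.529%; 0.472%). The median log2 difference of males from females under saline was 0.12 over the 189 and 0.01 over all genes. Malat1 was among the 18, with a log2 difference of 0.56 ± 0.43 (edgeR adjusted p = 0.676).

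When only the 8 saline libraries were fitted, so that no bleomycin library entered the estimate of the spread, 6 members were higher in males and 0 lower at an edgeR adjusted p below 0.05 (2.90% and 2.78% of all genes in that fit). These 6, named after their values were seen, are Prr33 (log2 difference 0.64), Gdap10 (0.74), Malat1 (0.55), Mir142hg (0.69), Gm26917 (0.56) and Gm37233 (0.44). Prr33 had 16.4, 14.9, 15.5 and 14.5 FPKM in saline males and 9.22, 8.45, 11.6 and 9.62 FPKM in saline females. For Gdap10 the values were 2.95, 2.75, 3.13 and 2.88 FPKM in males and 1.53, 2.01, 2.08 and 1.30 FPKM in females. In both the sexes were apart in all 8 libraries. Summed resident alveolar macrophage markers were apart as well, at 16140 to 17990 CPM in males and 22130 to 25390 CPM in females. The part of these cells in the sex differences was not tested. Under bleomycin, a fit without C33, C49 and C50 called 6 members higher and 2 lower in males (2.86% and 1.41% of all genes), with 3 males and 2 females left. Among the 8 were Gm2682 (log2 difference 1.88), Mir142hg (1.055) and Gm5547 (1.15). In the libraries left, the summed T cell markers were 679, 509 and 573 CPM in males and 351 and 336 CPM in females. Those of B cells were 388, 240.5 and 236 CPM in males and 59.2 and 129 CPM in females. Sex and lymphocyte RNA thus cannot be told apart in this fit.

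Neighbouring genes were compared through the nearest protein-coding gene of each lincRNA. Both genes were tested for 89 of the 105, and both were called in 36 pairs. Of these pairs 23 (63.9%) moved in the same direction, where 65.3% of 4079 pairs of protein-coding genes did. Each protein-coding gene was paired with its own nearest coding gene, so mutual neighbours enter the coding pairs from both sides. Within 5000 bases the share was 10 of 13 (76.9%), against 65.6% of 2467 coding pairs. Of all 45 pairs within 5000 bases, called or not, 24 (53.3%) had the same sign, against 57.4% of 6127 coding pairs. Across these 45 the Spearman correlation of the log2 fold changes was 0.21 and Pearson's r 0.35, as a description over genes. The coding pairs within 5000 bases had 0.25 and 0.28, and the 44 more distant lincRNA pairs 0.22 and 0.18. Pvt1 and Myc, 47612 bases apart, fell by 0.88 ± 0.08 and 0.94 ± 0.14.

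**Figure D5:**
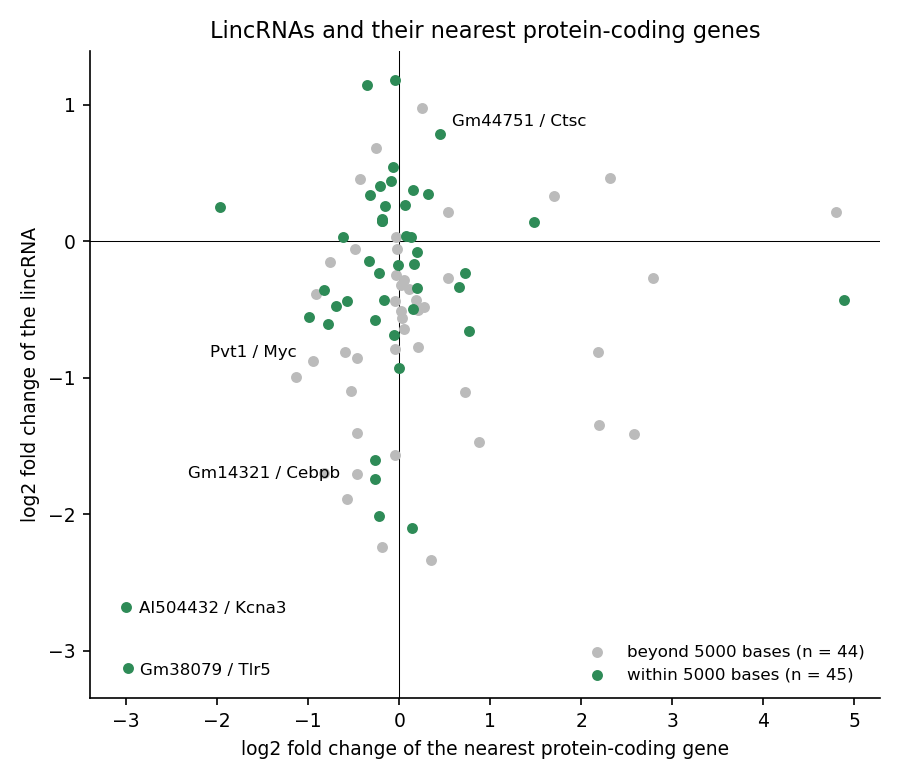
Log2 fold change after bleomycin, averaged over the sexes, of 89 lincRNAs (vertical) against that of the nearest protein-coding gene (horizontal), with pairs within 5000 bases in green (n = 45) and more distant pairs in grey (n = 44). AI504432 with Kcna3 and Gm38079 with Tlr5 lie together at the lower left, at -2.999 and -2.98 for the coding genes.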

How the data were processed

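RNA sequencing of lavage cells was analysed in 16 libraries, 4 in each of 4 groups given by the labels. The submitters' processing notes name DESeq2, featureCounts (1.5.0-p3), HISAT2 (2.0.5) and fastp (0.12.2) as tools of the authors, with the builds mm9 and mm10 but no role for either. All tests start from the deposited raw counts per gene. FPKM values were taken as deposited by the authors; they are counts divided by gene length and by 1 number per library, whose definition is not given in the sources used here. Gene coordinates are those of GRCm38: 186 of the 194 lincRNAs have identical coordinates in GENCODE M21.

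Genes were kept with filterByExpr (minimum count 10), which left 15257 of 54532. In edgeR 4.0.16 (TMM scaling, quasi-likelihood F test, R 4.3.3) all 16 libraries entered a single fit of the 4 group means. The Benjamini-Hochberg adjustment covered every gene tested, and a gene was called below 0.05. The 6 comparisons set bleomycin against saline (males, females, average), males against females within each treatment, and the 2 sexes' responses against each other. SE values are the log2 fold change divided by the root of F. Intervals and floors (3 counts) cover counting error only. Sequence copies were searched with BLAST 2.17.0 (at least 95% identity over 100 bases). The fit was tested on simulated data.

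Alternatives were library totals alone, RLE factors, DESeq2 1.42.0, limma voom 3.58.1, other filters, fits of only the libraries compared, each library left out, and C33, C49 and C50 left out together. Named lincRNAs are those on 6 lists of known lincRNAs, the 5 with the highest mean, the 10 largest called rises and falls, the 8 with the highest level among those found in 1 treatment only, and those beside the threshold. The members and lists were chosen with earlier results of these data known. The authors' deposited tables of comparisons were not used here.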

Additional observations from a re-analysis of the deposited data

Results flagged for a closer look

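In 172 groups of 4 libraries (the named lincRNAs and the share of counts in all 194) the highest or lowest library was set against the other 3, and 12 stood far from them. Chance gives about 5% of such groups. Bleomycin male C33 was high for Neat1 (30.6 FPKM; the others 15.9 to 18.3), Snhg20 (2.70; 2.01 to 2.06) and Gm34907 (1.26; 0.533 to 0.644). Bleomycin female C49 was high for Gm44174 at 11.3 FPKM, with the others at 1.27 to 2.08. Bleomycin female C69 was high for Gm17586 (6.51 FPKM; 3.77 to 4.16) and Gm11496 (3.799; 1.16 to 1.49), and C68 was low for Snhg12 (1.74; 2.11 to 2.15).

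Saline libraries gave the other 5. Saline male C71 was high for Gm10076, the copy of Rpl41, at 102 FPKM, with the others at 20.0 to 23.6. Saline male C73 was low for Epb41l4aos (9.86 FPKM; 12.5 to 13.0) and high for Gm32184 (1.82; 0.857 to 0.876). The remaining values rest on single counts: Gm2682 at 0.02505 FPKM in saline male C70 and Gm44174 at 0.3065 FPKM in saline female C75, each with 0 in the other 3 libraries.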

How the results depend on the processing

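The numbers of lincRNAs called with bleomycin, averaged and in each sex, stayed within 1.5 times of the reported numbers under every alternative tried. With each library left out in turn they ran from 55 to 63 (average), 47 to 57 (males) and 36 to 47 (females). Between the sexes 0 were called in the model of all libraries. Under saline, 1 was called without a filter on low counts (Gm26917), 6 from the saline libraries alone and 1 without C33, C49 and C50 (Prr33). Under bleomycin, 8 were called without C33, C49 and C50, which leaves 3 males and 2 females (2.86% of all genes higher and 1.41% lower in males). A threshold of 0.5 FPKM would give 323 lincRNAs and one of 2 FPKM 100. The change of Mir142hg reversed to -0.44 without C33, C49 and C50. No paired analysis was possible because the labels share no replicate number between groups. Low counts limit the lincRNAs found in 1 treatment only, and the cause of these shifts was not tested.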
